A study of Oryza sativa Japonica Group with 20 samples.

Results

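Roots and leaves of unstressed rice seedlings were compared here gene by gene, and the genes that set the tissues furthest apart were then followed through 12 h of dehydration. The seedlings were non-transgenic plants of the japonica cultivar Nakdong, 14 days old, which had been taken out of soil and kept in fresh water for 1 day before the start. At 0 h they had not yet been dried. The others were air-dried in a chamber at 32 °C under continuous light, with the roots wrapped, and leaves and roots were harvested separately after 0.5, 2, 6 or 12 h. Each tissue and time had 2 arrays, labelled as biological replicates, so that 4 of the 20 arrays measured the tissues before drying, and no label says whether a replicate was 1 plant or a pool. All 27609 genes on the array were ranked by the difference between the mean log2 intensity of the root 0 h and the leaf 0 h arrays. The 100 genes at the root end are called root-biased and the 100 at the leaf end leaf-biased, 200 of 27609 in all.

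A leaf lives from photosynthesis and a root from sugar that the leaf exports. Leaf cells therefore devote a large part of their messenger RNA to the chloroplast, above all to Rubisco, the enzyme that fixes carbon dioxide, and to the chlorophyll a/b binding proteins that collect light for the photosystems. Root cells take up water and ions and, underground, usually build no working photosynthetic apparatus. The study states that roots can turn green in light. Because whole organs were extracted, fewer cells of a type and less RNA per cell cannot be told apart in any value below.

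The 4 arrays of 0 h were alike in overall brightness, with medians over genes of 2534 and 2662 in leaf and of 2704 and 2743 in root. The log2 values of the replicates correlated at r = 0.959 in leaf and 0.963 in root, and those of leaf with root at 0.792 to 0.816, all across genes, which are no independent replicates. A control feature made of random sequences read 175 and 188 in leaf and 146 and 161 in root, and is used here as the background level. It stood higher on a pair of later arrays. On replicate 1 of leaf at 0.5 h it read 362 with 21.1% of genes dimmer, and on replicate 2 of root at that time 340 with 20.0% dimmer. Elsewhere this share was 1.04% to 12.5%, with the lowest value on leaf 2 h replicate 2.

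Before dehydration, 3089 genes (11.2% of those tested) were higher in root and 1986 (7.19%) were higher in leaf. A gene was called when limma, fitted to all 20 arrays, gave an adjusted p under 0.05 and the log2 difference passed 1. Together 5075 genes (18.4%) were called, and 60.9% of them were higher in root, while the median difference over all genes was 0.04. Leaf-higher genes were fewer but reached further. Differences past 1 were found in 4724 genes towards root and 2890 towards leaf, whereas differences past 5 were found in 113 and 177 and past 6 in 37 and 86. The direction of the majority depended on how dim values were treated. When each value was raised to the median of 5 transgene features of its array, a setting chosen after seeing the data, 1207 genes were called root-higher and 1455 leaf-higher, so that 45.3% were root-higher. Leaving out root 0 h replicate 1 lowered the root-higher count to 2011.

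The identifiers on the array fall into several kinds. Among the 108 genes with identifiers beginning CAA, 37 (34.3%) were called leaf-higher and 0 root-higher, and their median difference was −1.20. The median CAA gene read 10135 in leaf and 3092 in root. Of the 53 genes with identifiers beginning BAC, 4 (7.55%) were called root-higher, below the 11.2% of all genes, and 0 leaf-higher, with a median difference of 0.99. None of these was extreme enough to enter either list of 100. The root-biased genes comprised 85 AK and 13 Os identifiers and 2 of other kinds, and the leaf-biased genes 96 AK, 3 Os and 1 other. All 200 were measured by 10 probes each. The files and the gene table used here gave 0 of the 27609 identifiers a name, so apart from the genes that the study itself names, identifiers are printed without a function.

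Most of the root-biased genes were below background in leaf, although the brightest stood at 1241 there. Their intensities in root at 0 h ran from 589 to 53775 with a median of 6004, and the median of the same genes in leaf was 85.6. In leaf, 69 of the 100 lay below the random-sequence feature on both arrays and 14 on one, which leaves 17 that were above it on both. The differences that chose the list had a median of 5.79 on the log2 scale. The last gene inside the list stood at 5.18 and the first outside at 5.14, so the edge of the list is no natural gap. With the leaf values raised to the random-sequence feature, the median of the list came to 5.04. These differences at 0 h selected the genes and are given as a description without a test.

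The leaf-biased genes mirrored this in the opposite direction. Their leaf intensities at 0 h ran from 1514 to 51234 with a median of 10748, and the median of the same genes in root was 97.9. In root, 59 lay below the random-sequence feature on both arrays, 10 on one and 31 on neither. The median difference was −6.43, or −5.91 with raised values, and the list ended at −5.78 against −5.77 for the first gene outside. Among the 100 most biased genes ranked after raising the dim values, 67 root-biased and 75 leaf-biased genes were the same, and with values raised to the transgene features 32 and 43 were.

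**Figure D1:**
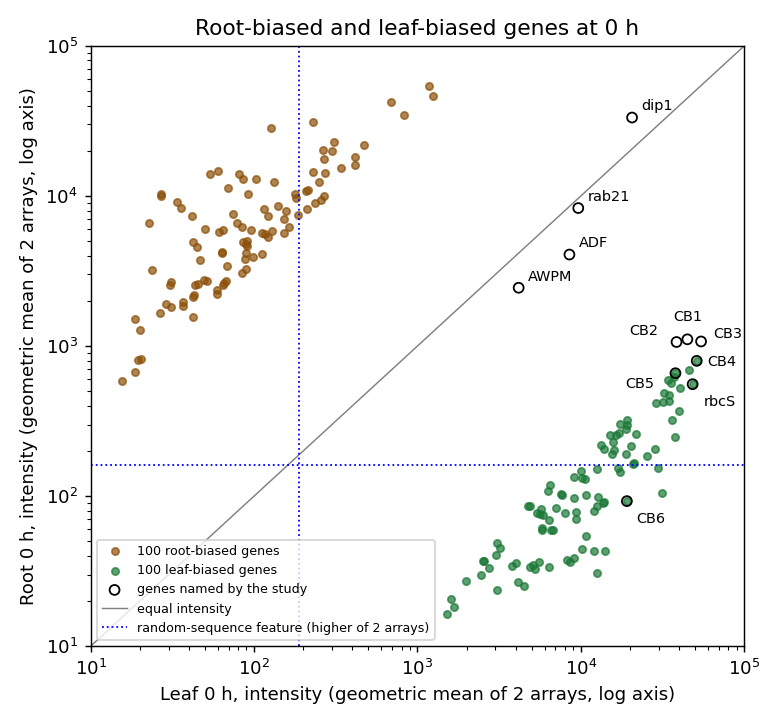
Intensity in leaf (x axis) and root (y axis) at 0 h, geometric means of 2 arrays on log axes, for the 100 root-biased genes (brown), the 100 leaf-biased genes (green) and the genes the study names (open circles). Most root-biased genes lie left of the vertical dotted line, the random-sequence feature in leaf, while rbcS and CB1 to CB5 lie well above the horizontal one in root and CB6 lies below it.

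Among genes whose dimmer tissue was above background on at least 1 array, AK062381 and AK062831 had the largest fitted differences towards root at 0 h. AK062381 read 36037 and 27053 in root against 195 and 272 in leaf, a log2 difference of 7.08. AK062831 read 9470 and 16042 in root against 207 and 84.1 in leaf, a difference of 6.55. Its 84.1 was below background. Raised to the random-sequence feature, the difference was 6.02, less than the 6.25 of AK073080. In AK062381 and AK062831 both root values lay far above both leaf values. Furthest towards leaf were AK120691 and AK120393. AK120691 read 30278 and 29454 in leaf against 209 and 115 in root, a difference of −7.59. AK120393 read 32419 and 43428 in leaf against 303 and 203 in root, a difference of −7.24. Genes below background on both dimmer arrays were not ranked, although the bounds of some lay further out. AK109149 differed by at least 7.29 towards root, and AK059037 was at least as far from 0 as −7.67 towards leaf.

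The study names 4 of the 200 members, and the products of the others were not looked up here. The named members are photosynthetic genes in the leaf-biased list. They are rbcS (AK121444), which encodes the small subunit of Rubisco, and CB4 (AK060222), CB5 (AK119534) and CB6 (AK106085), which encode chlorophyll a/b binding proteins. Counted from the most leaf-biased gene, CB6 ranked 9, rbcS 50, CB4 86 and CB5 96. The related genes CB3 (AK066762), CB1 (AK060904) and CB2 (AK119176) fell just outside, at ranks 106, 132 and 147. CB1, CB2 and CB3, which the lists did not take in, serve as a check of the tissue labels, and their values are given below with the others. Of the study's other marked genes none is a member. ADF, a putative actin depolymerizing factor, was the only one called at 0 h, leaf-higher by −1.06 (SE 0.27, adjusted p = 0.0113 from limma), and AWPM, rab21 and dip1 were not called (adjusted p = 0.313, 0.667 and 0.107). Ubiquitin was not analysed here.

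The study amplified the 4 member transcripts with the primers printed next, 5′ to 3′. They are shown because the study pairs them with the identifiers given above. Whether each pair amplifies only that member of its gene family was not tested here.
rbcS forward: accaccgacaccggcgagaa
rbcS reverse: ttgcgctcggctagctcatc
CB4 forward: agcacaacgtgacgcagaag
CB4 reverse: acatcttccatcgcccaatc
CB5 forward: tgcagctggcggagatcaag
CB5 reverse: ctcgctcgtcatcacaaaac
CB6 forward: aacatcctcaccagcctcaa
CB6 reverse: acgcaccatcgatcgtacaa

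At 0 h rbcS was 51988 and 44987 in leaf and 668 and 465 in root, a log2 difference of −6.44. CB4 was 52302 and 50188 in leaf and 996 and 638 in root, a difference of −6.01. CB5 was 34875 and 41305 in leaf and 822 and 530 in root, a difference of −5.85. All 3 were thus strongly leaf-biased yet above the random-sequence feature on both root arrays. CB6 differed in that its root values, 102 and 84.3, were below that feature on both arrays. With leaf values of 22672 and 16165, the root minus leaf difference of CB6 was at least as far from 0 as −6.97. The 3 genes outside the list are given with the limma fit of 0 h. The same arrays placed them just outside, so these p-values are no support independent of the ranking. CB1 (43665 and 46160 in leaf, 1222 and 1007 in root) was higher in leaf by −5.34 (SE 0.51, adjusted p = 7.91e-06 from limma). CB2 (40821 and 36380 in leaf, 802 and 1415 in root) differed by −5.18 (SE 0.38, adjusted p = 1.09e-06), and CB3 (58566 and 50626 in leaf, 1329 and 867 in root) by −5.66 (SE 0.45, adjusted p = 2.31e-06).

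How far the tissue difference lasted was tested on the 16 arrays of 0.5 to 12 h, none of which had been used to choose the genes. Nearly all members were called in their direction at 0.5 h and most still at 12 h, but how many depended on the treatment of dim values. Of the root-biased genes, 91 were called root-higher after 0.5 h, 72 after 2 h, 71 after 6 h and still 64 after 12 h. Over all genes the shares called root-higher at these times were 8.49%, 6.23%, 8.45% and 6.9%. Of the leaf-biased genes, 99 were called leaf-higher after 0.5 h, 97 after 2 h, 89 after 6 h and still 84 after 12 h, against 6.9%, 10.2%, 7.22% and 5.46% of all genes. With values raised to the transgene features, chosen after seeing the data, 14 root-biased and 34 leaf-biased genes were called at 12 h, and with the dimmest 25% of genes left out, which kept 41 and 51 members, 35 and 46 were. In the opposite direction 1 root-biased gene was called, at 2 h, and 0 leaf-biased genes were called at any time. The sign at 12 h was that of 0 h in 95 root-biased and 100 leaf-biased genes.

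The differences shrank while they lasted. The median difference of the root-biased genes was 4.62, 3.38, 3.17 and 3.39 at the 4 later times. That of the leaf-biased genes was −5.69, −4.71, −4.17 and −3.70. With dim values raised to the random-sequence feature the medians were 3.46, 3.22, 2.96 and 2.41 for root-biased and −4.73, −4.00, −3.67 and −3.04 for leaf-biased genes, so that both were smallest at 12 h. On both leaf arrays of 12 h, 68 root-biased genes lay below that feature. Since the genes were picked as extremes of the 0 h arrays, some shrinkage from 0 h to any other set of arrays is built into the choice. The later times, which were not used to choose, still differed among themselves. Both lists had their widest median at 0.5 h. The median over all genes stayed between −0.06 and 0.02 at these times.

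**Figure D2:**
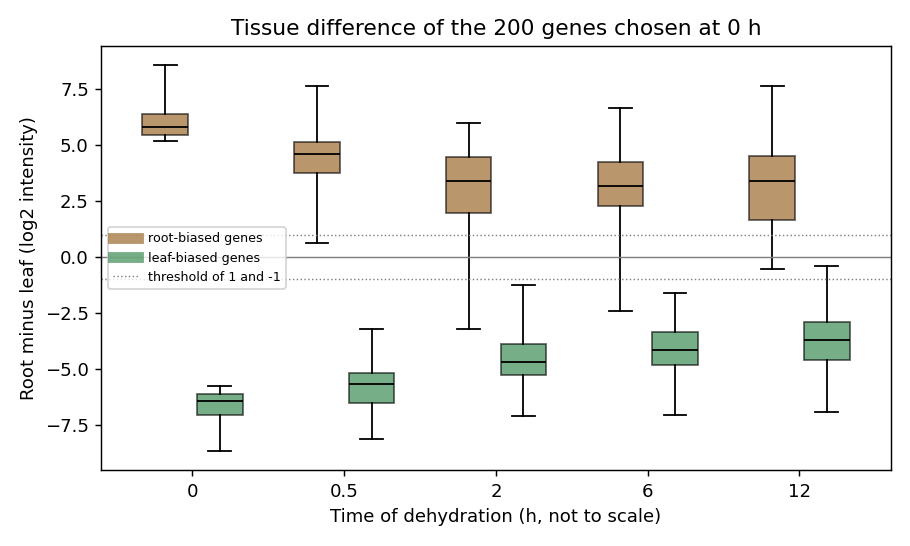
Root minus leaf log2 intensity of the 100 root-biased and 100 leaf-biased genes at each time (box, quartiles with the median; whiskers, lowest and highest gene). The medians move from 5.79 to 3.39 and from −6.43 to −3.70 between 0 and 12 h, and the 0 h boxes are those that chose the genes.

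The separation of single arrays gave a similar picture. At 12 h both root arrays lay above both leaf arrays in 82 root-biased genes, against 31.1% of all genes, and both leaf arrays lay above both root arrays in 99 leaf-biased genes, against 25.7%. The most biased genes were partly replaced, however. Of the 100 root-biased genes, 56 were still among the 100 most root-biased at 0.5 h and 31 at 12 h, and for leaf-biased genes these numbers were 55 and 32. Across all 27609 genes the size of the difference at 0 h correlated with that at 0.5 h at r = 0.844, and with those at 2, 6 and 12 h at 0.602, 0.58 and 0.573. Within the lists it correlated more weakly, at 0.309 in root-biased and 0.325 in leaf-biased genes for 12 h. These are descriptions across genes, and the range of each list is cut by its choice.

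Counted over the 4 later times, 58 root-biased genes were called root-higher each time and 7 never. Of the leaf-biased genes, 83 were called leaf-higher each time and 1 never. Over all genes 2.25% and 2.57% were called at all 4 times. Of the other 2989 genes that were root-higher at 0 h, 25.4% were called root-higher again at 12 h, and of the other 1886 leaf-higher genes 41.4% were called leaf-higher again. The lists differ from these sets by the size of the 0 h difference that chose them.

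From 0 h to 12 h the list medians moved further in the tissue in which the genes were high. At 2 h the root-biased genes also stood higher in leaf. At 0 h, 69 root-biased genes in leaf and 59 leaf-biased genes in root were below background on both arrays. How much each tissue contributed to the narrowing was therefore not measured. On the root arrays the median of the root-biased genes was 6212 and 6328 before drying. It was 4387 and 2306 after 0.5 h, 2651 and 2772 after 2 h, 1990 and 2197 after 6 h and finally 1024 and 1157. On the leaf arrays it was 88.9 and 75.4 before drying, 85.2 and 219 after 0.5 h, 209 and 558 after 2 h, 260 and 228 after 6 h and 130 and 92.9 at the end. In root the median was thus lower at each later time, and in leaf it was highest at 2 and 6 h and back near its start at 12 h. The highest leaf value was that of leaf 2 h replicate 2, the array with the fewest genes below background, and the low root value at 0.5 h was that of root 0.5 h replicate 2, whose random-sequence feature stood high. The part of these arrays in the medians was not tested beyond leaving them out. Without leaf 2 h replicate 2, 72 root-biased and 82 leaf-biased genes were called at 2 h. When the arrays of 0.5 h with a high random-sequence feature were dropped, 87, 80, 79 and 72 root-biased and 97, 98, 92 and 88 leaf-biased genes were called at the 4 later times, and 3758 root-higher and 2337 leaf-higher genes at 0 h.

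The leaf-biased genes had come to most of their lower level in leaf by 2 to 6 h. Their median on the leaf arrays was 11811 and 11108 before drying, 7429 and 9936 after 0.5 h, 3623 and 5120 after 2 h, 3261 and 3828 after 6 h and 3338 and 3398 at the end. In root it was 103 and 94.5 before drying, 109 and 108 after 0.5 h, 117 and 155 after 2 h, 108 and 180 after 6 h and 133 and 244 at the end. The leaf medians of 2, 6 and 12 h lay close together and far below those of 0 h. From 2 h on, root replicate 2 was above root replicate 1 at each time.

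**Figure D3:**
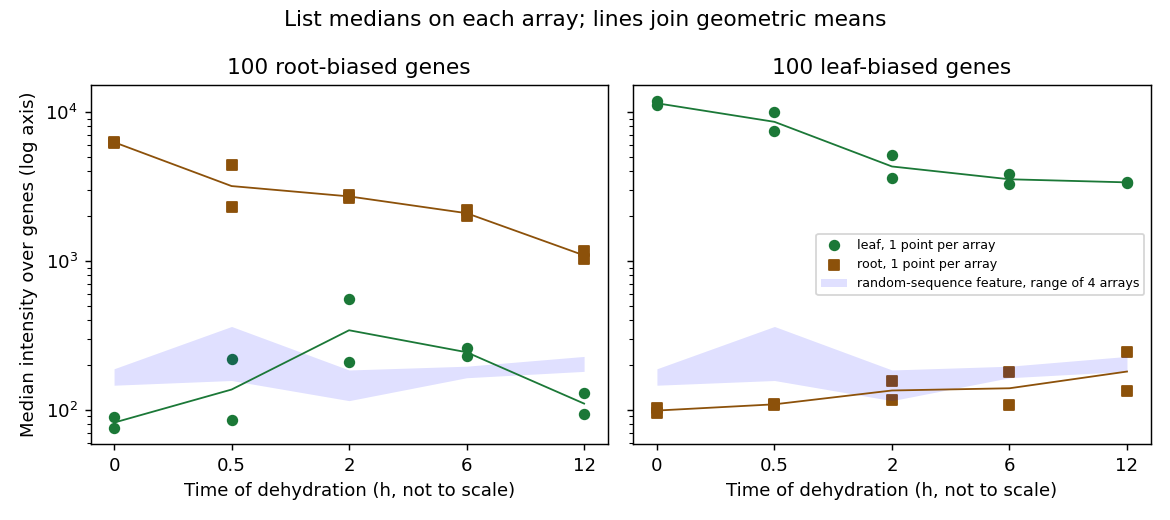
Median intensity of the root-biased (left) and leaf-biased (right) genes on each array against time, log axis; each point is 1 array, lines join geometric means of the 2 arrays, and the band is the range of the random-sequence feature over the 4 arrays of a time. The high tissue comes down in both panels, from 6212 and 6328 to 1024 and 1157 in root and from 11811 and 11108 to 3338 and 3398 in leaf, and stays above the band.

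Gene by gene, 47, 48, 60 and 72 root-biased genes stood in root more than 1 below their 0 h mean on the log2 scale after 0.5, 2, 6 or 12 h of drying. The shares of all genes were 16.8%, 9.21%, 13.6% and 17.9%. For leaf-biased genes in leaf the counts were 16, 56, 74 and 73, against 13.3%, 8.19%, 14.9% and 16.7%. The 0 h arrays chose these genes for being high, so these changes from 0 h are a description with no test. At 12 h the median change was −2.15 for root-biased genes in root and −1.79 for leaf-biased genes in leaf. Changes past −3 were found in 34 root-biased genes in root and in 16 leaf-biased genes in leaf, against 2.07% and 0.757% of all genes. The other tissue moved less, with a median change of 0.34 for root-biased genes in leaf and 0.87 for leaf-biased genes in root. In root 39 leaf-biased genes stood more than 1 above their 0 h mean, against 1748 of all 27609 genes. At 0 h 59 leaf-biased genes had been below the random-sequence feature on both root arrays, so the size of a rise in these is not a measured one.

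The genes no longer called at 12 h stood further below their level of 0 h in the high tissue. In the 36 root-biased genes that were not called root-higher at 12 h, the median root intensity was 5623 at 0 h and 228 at 12 h, while that in leaf was 74.0 and 87.9. In the 64 that were still called it was 6248 and 2267 in root. Likewise, the 16 leaf-biased genes not called at 12 h had a median of 6631 in leaf at 0 h and of 665 at 12 h, against 12048 and 3532 in the 84 still called. The call at 12 h uses the 12 h level, so these medians describe the split and do not test it.

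Root-biased genes also illustrate both outcomes singly. AK062831 and AK073080 had the largest fitted root-higher differences at 12 h among genes above background on at least 1 leaf array. AK062831, already named at 0 h, read 21682 and 14834 in root against 244 and 90.0 in leaf, a difference of 6.92 (SE 0.59, adjusted p = 5.73e-05 from limma). AK073080 read 27253 and 26407 in root against 498 and 134 in leaf, a difference of 6.70 (SE 0.51, adjusted p = 3.61e-05 from limma). In both genes leaf replicate 2 was below background, so the fitted sizes and their order are not measured ones. Their root levels at 0 h, 9470 and 16042 for AK062831 and 14708 and 27999 for AK073080, had not been higher than at 12 h by the mean of the replicates. AK062381, the most root-biased rankable gene at 0 h, went the other way. Its root intensity passed through 17654 and 11558 after 0.5 h, 3229 and 3762 after 2 h and 700 and 499 after 6 h to 212 and 360 at the end. Its leaf intensity stayed between 136 and 498 throughout. Its difference was 5.09 at 0.5 h (adjusted p = 1.15e-05) and 0.68 at 12 h (SE 0.37, adjusted p = 0.291).

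Towards leaf the largest fitted differences at 12 h among genes above background on at least 1 root array were those of AK101337 and AK104410. AK101337 read 9462 and 5710 in leaf against 51.2 and 235 in root, a difference of −6.07 (SE 0.77, adjusted p = 0.000624 from limma). AK104410 read 13543 and 20191 in leaf against 186 and 497 in root, a difference of −5.77 (SE 0.57, adjusted p = 0.000154), and its leaf level of 17554 and 16325 at 0 h overlapped that of 12 h. In both genes root replicate 2 was above background and root replicate 1 was not. The fitted sizes and their order are therefore not measured ones. AK120691, the most leaf-biased rankable gene at 0 h, stood at 4014 and 907 in leaf at 12 h and 246 and 320 in root, a difference of −2.77 (SE 0.55, adjusted p = 0.0073).

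Other members led by fitted difference at the intermediate times, again among genes whose dimmer tissue was above background on at least 1 array. Where the other dimmer array was below background, as in most of these genes, the fitted size and the order are not measured ones. At 0.5 h AK071372 (11296 and 11238 in root, 52.9 and 184 in leaf) and AK121408 (8610 and 7696 in root, 47.4 and 337 in leaf) led towards root, with differences of 6.83 and 6.01. The leaders towards leaf at 0.5 h were CB6 (−6.88) and AK065248 (31793 and 32206 in leaf, 399 and 219 in root), the latter at −6.76. At 2 h AK073080 (6.01) and AK110292 (5.87) led towards root and AK106213 (−6.36) and AK059037 (−5.95) towards leaf. At 6 h AK064194 (18763 and 17757 in root, 184 and 183 in leaf) and AK064360 led towards root, at 6.64 and 6.29, and AK101337 (−6.69) and AK106213 (−6.42) towards leaf. All of these passed the test, with adjusted p from 2.05e-05 to 0.00226.

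The photosynthetic members showed how the leaf bias narrowed from both sides. In leaf rbcS went from 60069 and 57633 after 0.5 h to 33313 and 43004 after 2 h, 25792 and 31061 after 6 h and lastly 20208 and 27288. In root it was 2189 and 1495 after 0.5 h, 1844 and 6934 after 2 h, 1082 and 7582 after 6 h and lastly 3249 and 12891. The root values thus lay above those of 0 h on all later arrays, with root replicate 2 well above replicate 1 from 2 h on. By limma the difference was −5.02 after 0.5 h (SE 0.87, adjusted p = 0.0022), −3.40 after 2 h (0.0217) and −3.31 after 6 h (0.0256). After 12 h it was −1.86 (SE 0.87, adjusted p = 0.213) and was not called, although both leaf values still lay above both root values. The 2 h call was lost without leaf 2 h replicate 2 or root 2 h replicate 1, and the 6 h call without leaf 6 h replicate 1, leaf 6 h replicate 2 or root 6 h replicate 1 (adjusted p from 0.00697 to 0.168 and from 0.00851 to 0.21 over all alternatives).

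CB4 and CB5 stayed leaf-higher at every time. CB4 was 12340 and 15340 in leaf at 12 h against 2291 and 4580 in root, and its difference narrowed from −4.85 at 0.5 h to −2.09 at 12 h (SE 0.39, adjusted p = 0.00577 from limma). CB5 was 14922 and 16137 in leaf against 1834 and 5430 in root at 12 h, and narrowed from −4.67 to −2.30 (SE 0.54, adjusted p = 0.0169). The non-members CB1, CB2 and CB3 behaved alike in direction, with 12 h differences of −1.83 (adjusted p = 0.0497), −2.35 (0.0022) and −2.07 (0.0153). In all 5 genes the higher root value at 12 h was that of root replicate 2. Single arrays decided several of these 12 h calls. CB1 was lost without any 1 of the 4 arrays of 12 h, CB3 and CB5 without leaf replicate 1, leaf replicate 2 or root replicate 1, and CB4 without leaf replicate 2 or root replicate 1. Limma's treat test against a difference of 1 called none of CB1 to CB6 at 12 h, nor rbcS at 2 h and 6 h, and CB1 at 12 h was also lost with quantile normalization, with median centring and with values raised to the transgene features. The adjusted p over all alternatives ran from 0.0107 to 0.8 for CB1, 0.000251 to 0.066 for CB2, 0.00391 to 0.356 for CB3, 0.00118 to 0.194 for CB4 and 0.00256 to 0.295 for CB5.

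CB6 took a course of its own in root. From 102 and 84.3 before drying and 345 and 83.8 after 0.5 h it reached 4045 and 5262 after 2 h, then 3490 and 2661 after 6 h and 847 and 1892 at the end. In leaf it was 20999 and 19029 after 0.5 h, 14942 and 13769 after 2 h, 13073 and 15262 after 6 h and 12632 and 7630 at the end. Root was thus below background on 3 of the 4 arrays up to 0.5 h and brightest at 2 h, and both leaf values lay above both root values at all times. By limma the difference was −6.88 after 0.5 h (SE 0.57, adjusted p = 2.05e-05), −1.64 after 2 h (0.073, not called), −2.21 after 6 h (0.0237) and −2.96 in the end (0.00644). At 2 h CB6 was called under 7 of 14 alternatives (adjusted p from 0.0106 to 0.901). The 6 h call was lost without any 1 of the 4 arrays of 6 h (0.00185 to 0.351 over all alternatives), and the 12 h call without leaf 12 h replicate 1 or root 12 h replicate 1 (0.000307 to 0.0844).

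**Figure D4:**
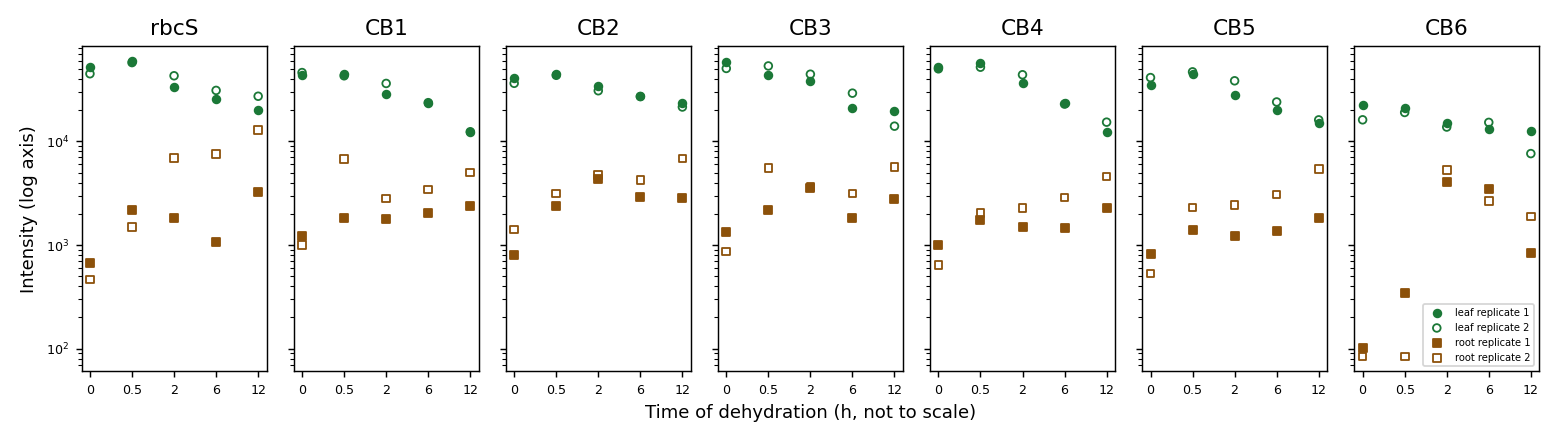
Intensity of rbcS and CB1 to CB6 on each array (log axis) against time, leaf in green circles and root in brown squares, with replicate 1 filled and replicate 2 open. Leaf points lie above root points in every panel and time, and root CB6 is the only series that starts at 102 and 84.3 and reaches 4045 and 5262 at 2 h.

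Whether members changed within a tissue after the first hours was tested between 2 h and 12 h, times that did not enter the choice. In root, 11 root-biased genes were called lower at 12 h than at 2 h and 0 higher, against 0.38% and 0.0435% of all genes. Their changes ran from −4.89 to −3.20 with a median of −3.66. Of the 11, 9 had been called root-higher at 2 h and 3 still were at 12 h, and 4 were below the random-sequence feature on both root arrays of 12 h, so that for these the fitted size is not a measured one. Among genes above background on at least 1 root array of 12 h, the largest falls were those of AK062911 and AK105204. AK062911 went from 4578 and 8414 to 219 and 200 (−4.89, SE 0.54, adjusted p = 0.00495 from limma), and AK105204 from 5943 and 8126 to 389 and 147 (−4.86, SE 0.59, adjusted p = 0.00971). AK062381 was also among them (−3.66, SE 0.37, adjusted p = 0.00382). The count rested on all 4 arrays. Leaving out root 2 h replicate 1 or root 12 h replicate 2 gave 2 genes, leaving out either of the other two (replicate 2 of 2 h, replicate 1 of 12 h) gave 0, and limma's treat test against a change of 1 called 0.

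Among leaf-biased genes in root 1 was called lower, AK119461, named because it was the only one, after its values were seen. It went from 509 and 696 at 2 h to 69.2 and 62.8 at 12 h (adjusted p = 0.00971 from limma), with both values of 12 h and both of 0 h (54.8 and 42.8) below background. Its change, with dim values raised to the random-sequence feature, was at least as far from 0 as −1.55. Without any 1 of the 4 root arrays of 2 h and 12 h it was not called.

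In leaf 0 members of either list were called between 2 h and 12 h, and only 9 genes of 27609 (0.0326%) were called in each direction by limma. At an unadjusted p under 0.05, 51 root-biased genes were lower in leaf at 12 h than at 2 h, against 16.2% of all genes, and 8 leaf-biased genes were. For root the unadjusted counts were 42 root-biased genes, against 7.06% of all genes, and 4 leaf-biased genes. The leaf result rested on single arrays. Leaving out leaf 2 h replicate 1 left only replicate 2 at that time, the array with the fewest genes below background. The median of the root-biased genes was 558 on replicate 2 and 209 on replicate 1. Without leaf 2 h replicate 1, 33 root-biased genes were called lower in leaf, and when the arrays of 0.5 h with a high random-sequence feature were dropped 26 were. Most of these genes were near background in leaf at 12 h, where 70 and 80 of the 100 lay below the random-sequence feature on the 2 arrays.

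**Figure D5:**
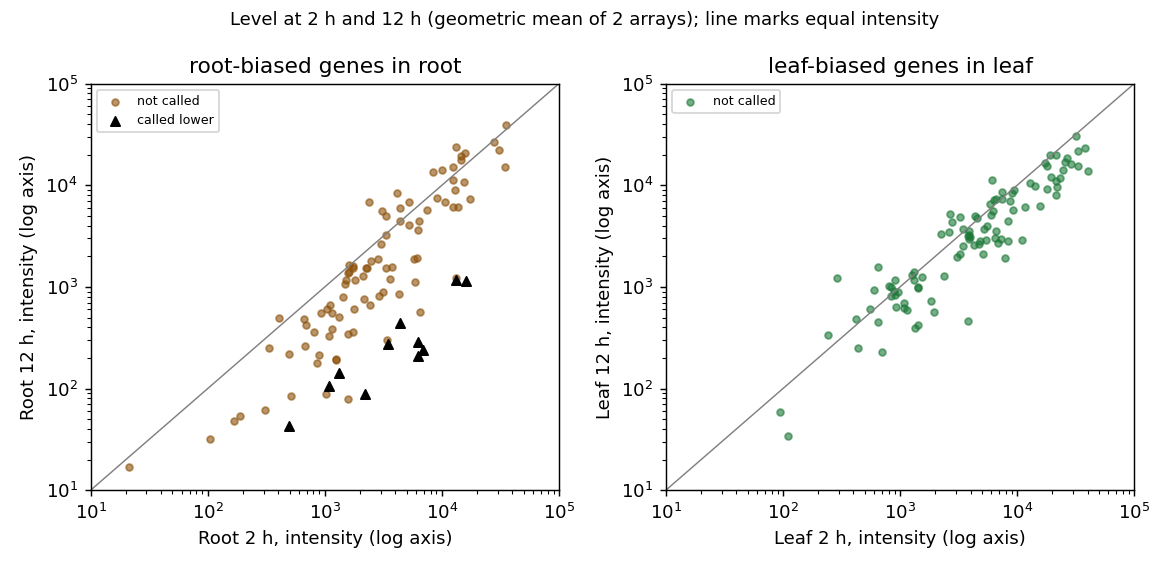
Intensity at 2 h (x axis) and 12 h (y axis), geometric means of 2 arrays on log axes, for root-biased genes in root (left) and leaf-biased genes in leaf (right); the line marks equal intensity. Of the root-biased genes 83 lie below the line and 11 were called lower (triangles), and of the leaf-biased genes 74 lie below it and 0 were called. Over all 27609 genes (not drawn), 14590 were lower at 12 h than at 2 h in root and 17090 in leaf.

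The change from 2 h to 12 h was also compared between the tissues. The change in root minus that in leaf was called by limma for 0 of 27609 genes in either direction, and 2372 genes passed an unadjusted p under 0.05, among them 18 root-biased and 11 leaf-biased genes. Its median was 0.83 in the leaf-biased genes, 82 of which were above 0, and 0.02 in the root-biased genes, against 0.09 over all genes. Of all 27609 genes 15520 were above 0. A difference between the tissues in how single members changed over these hours was therefore not detected with 2 arrays in each group.

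One root-biased gene, AK110467, was called in the opposite direction at 2 h, and is described here because it was the only one, after its values were seen. It was 1402 and 1172 in root against 23.2 and 17.6 in leaf at 0 h. At 2 h it was 17.7 and 25.1 in root, below background on both arrays, and 71.3 and 527 in leaf, of which the second alone was above it. The call (adjusted p = 0.0396 from limma) therefore rested on values below background and on leaf 2 h replicate 2. With dim values raised to the random-sequence feature the difference was −0.76, short of the threshold of 1. After 12 h all 4 values of the gene lay below background.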

How the data were processed

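RNA of each sample was hybridised to a single-colour (Cy3) rice 3′-tiling array. The authors reduced its probes to 1 value per gene with RMA (named in the submitters' processing notes, version not given in the sources used here), deposited as linear intensity. Which arrays were normalized together is not given in the sources used here. A scaling across arrays of both tissues assumes a like distribution of values in leaf and root. Log2 of the intensity was analysed as it stood, without another normalization or filter, and 6 control features were left out.

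Groups came from the sample labels. Root and leaf at 0 h were compared in limma 3.58.1 (R 4.3.3; lmFit, eBayes) in 1 fit of 20 arrays and 10 groups. The 200 members were tested only on the 16 arrays of 0.5 to 12 h (8 groups). P-values were adjusted over all 27609 genes by the Benjamini-Hochberg method, and a call needed an adjusted p under 0.05 and a log2 difference past 1 or −1. Errors are limma's standard errors (SE). The members, lists and rules were chosen with earlier results of these data known.

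Named genes are those that the study pairs with identifiers and, without names, at most 2 per direction of each comparison, namely the largest differences among members that did not overlap between groups and whose dimmer group was not below the random-sequence feature on both arrays. Other such differences are bounds, computed with dim values raised to that feature. Gene lists by function could not be applied, since 0 identifiers matched the gene table. A depth is not defined for arrays, and their number limits the precision.

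Alternatives were quantile normalization, median centring, the dimmest 25% of genes left out, values raised to the random-sequence feature, limma's treat, a trended robust prior, a block for the replicate number, other arrays in the fit, other list sizes and rankings, and each array left out in turn. After seeing the data, values raised to the transgene features were added, and the 2 arrays of 0.5 h with high background were left out of the 0 h comparison. The procedure was tested on simulated data with 27609 genes. For root against leaf at 0 h it called 45 and 43 of 50 genes at true differences of 3 and −3. At 1.5 and −1.5 it called 17 and 18 of 50, and it called 3 of 27409 unchanged genes. For root against leaf at 12 h it called 43 and 41 of 50 at 3 and −3. Only 11 and 6 of 50 were called there at 1.5 and −1.5, and 7 of 27409 unchanged genes were.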

Additional observations from a re-analysis of the deposited data

Results flagged for a closer look

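The array carries 5 features named after transgenes, and the seedlings were non-transgenic. On every array of 0 h each of them read above the random-sequence feature, which ran from 146 to 188 there. Their lowest intensities at 0 h were 289 for Bar, 364 for gus, 610 for Hygromycin, 529 for Knamycin and 1994 for sGFP. They have 3 to 9 probes each. Raising dim genes to their median turned the majority among the genes called at 0 h from root to leaf.

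The 2 lists moved in opposite directions in the 2 tissues from 0 h to 12 h on every array, a difference between tissues that was not tested because the 0 h arrays chose the genes. The median log2 level of the root-biased genes changed by 0.42 in leaf and −2.53 in root. That of the leaf-biased genes changed by −1.77 in leaf and 0.87 in root.

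The light-harvesting genes CB1, CB2 and CB3, outside the list but close to it, changed differently in the tissues from 0 h to 12 h in limma's test of the difference. They were not chosen independently of these data, since the study singled out CB1 to CB6 as up-regulated at every time it examined. A choice for a rise in root favours this test. The change in root minus that in leaf was 3.51 for CB1 (adjusted p = 0.0165), 2.83 for CB2 (0.0114) and 3.59 for CB3 (0.00875). For each gene both values of 12 h lay above both of 0 h in root and below both in leaf. Over the alternatives the adjusted p ran from 0.00307 to 0.152 for CB1, 0.00385 to 0.163 for CB2 and 0.00276 to 0.093 for CB3. All 3 calls were lost with limma's treat test against a difference of 1. The call of CB1 was also lost without leaf 0 h replicate 2, root 0 h replicate 1, root 0 h replicate 2, leaf 12 h replicate 2 or root 12 h replicate 2, and that of CB2 without root 0 h replicate 1.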

How the results depend on the processing

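Of the named genes, only rbcS and CB1 to CB6 were followed through all alternatives, and none of their tested differences changed sign. With values raised to the transgene features, however, the majority among the genes called at 0 h passed from root (60.9%) to leaf (45.3% root-higher). Of the counts, 290 stayed within 1.5 times the main value under an alternative and 58 did not. Several main values were 0, and for these only another 0 counted as staying, which adds to the 290. With the dimmest 25% of genes left out, which kept 41 root-biased and 51 leaf-biased genes, 2024 genes were root-higher at 0 h, and at the 4 later times 40, 36, 38 and 35 root-biased and 51, 50, 49 and 46 leaf-biased genes were called. From 2 h to 12 h in root, 3 root-biased and 0 leaf-biased genes were then lower. Values raised to the transgene features, chosen after seeing the data, gave 1207 root-higher genes at 0 h, 16, 26, 22 and 14 root-biased and 51, 57, 40 and 34 leaf-biased genes at the later times, and 0 of either list lower in root. Limma's treat gave 1042 root-higher and 839 leaf-higher genes at 0 h, 46 and 45 root-biased genes at 2 h and 6 h, and 0 of either list lower in root. In leaf from 2 h to 12 h, where 0 members were called, raising values to the random-sequence feature gave 3 root-biased and 1 leaf-biased gene lower and 1 root-biased higher, and 1 root-biased gene lower for the difference of the changes. Quantile normalization and median centring each gave 1 root-biased gene lower and 1 higher in leaf, and the trended robust prior 1 lower. With all 20 arrays 1 root-biased and 3 leaf-biased genes were lower and 1 root-biased higher. Leaving out leaf 0.5 h replicate 1 and root 0.5 h replicate 2 gave 26 root-biased and 5 leaf-biased genes lower and 1 of each list higher. The causes were not tested.

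Leaving out single arrays gave 2011 to 2196 root-higher and 1435 to 1584 leaf-higher genes at 0 h. Root-biased genes called were then 82 to 94, 48 to 72, 48 to 57 and 48 to 58 at the 4 later times, and leaf-biased genes 97 to 99, 82 to 94, 70 to 86 and 62 to 79. From 2 h to 12 h in leaf, 0 to 33 root-biased and 0 to 2 leaf-biased genes were lower and 0 to 1 root-biased higher, the upper values without leaf 2 h replicate 1. In root 0 to 2 root-biased and 0 leaf-biased genes were lower.

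Replicate numbers are not said to mark a shared batch. Deviations of same-numbered arrays correlated at −0.16 to 0.72 over 45 pairs of groups (median 0.31), above 0.1 in 38. Many groups thus deviated together by number, although not every pair did. The main fit had no term for this, and a replicate block was run as an alternative. With the replicate block 3454 genes were root-higher and 2243 leaf-higher at 0 h, 65 root-biased and 92 leaf-biased genes were called at 12 h, 15 root-biased genes were lower in root, and 1 root-biased gene was lower and 1 higher in leaf.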
